A study of Mus musculus with 20 samples.

Results

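Collagens are the triple-helical proteins that give the aortic wall most of its tensile strength. Fibrillar types such as I, III and V build ropes in the media and adventitia, type IV forms the sheet-like basement membrane around smooth muscle and under endothelium, type VI forms beaded microfilaments beside cells, and types VIII and X form hexagonal networks. Fibril-associated types (FACIT) decorate fibril surfaces, and the multiplexins XV and XVIII join basement membranes to the matrix beyond them. The members described here are the genes whose symbol is Col, a number, the letter a and a number. Mouse has 44 such collagen genes on the list used, and 23 of them were listed in at least 1 of 3 deposited tables, among 3696 genes listed there in all. The other 21 were listed in no table, which says only that they were not called.

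RNA was sequenced from cleaned aortas of female mice in 4 groups of 5 libraries, each library pooling tissue of 2 mice. Wild-type animals (WT) were young, at 12 to 15 weeks, or aged, at 72 to 78 weeks. Animals labelled Knockdown-KO (KO) were of the same ages and are given in the design as Nckx4-/-, deficient in Slc24a4, which encodes a potassium-dependent sodium/calcium exchanger. Strain, construct and the cells that lost the gene were named in none of the sources used here. The tables hold ageing in WT (aged relative to young), ageing in KO, and KO young relative to WT aged. In KO young against WT aged, age and genotype differ together and cannot be told apart, and KO young against WT young was not analysed here. Slc24a4 itself was listed only for WT ageing, at a log2 fold change of −2.00 (SE 0.46, adjusted p = 1.4e-05) in the authors' deposited table, so the tables do not check the KO label. Nothing says whether the pools of a group were raised apart, so p-values measure the spread between these pools.

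Each table gives 1 row per called gene, with a log2 fold change, its standard error (SE), an adjusted p from the authors' test, which their notes name as DESeq2, and a mean normalized count over the libraries compared. The labels also name a table of raw counts for all samples, which was not analysed here, so the spread and the depth of single libraries are unknown in what follows. Where group levels are given below, they follow from that mean and the fold change and carry no error of their own. The deposited fold changes are shrunken towards 0. Tables were normalized separately, so levels are compared within a table only. Of 10 smooth muscle markers, 1, 3 and 3 were listed for WT ageing, KO young against WT aged and KO ageing, and no macrophage marker of 10 was listed in any; levels of markers that were not called were not analysed here, so the tissue label was checked no further.

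In aged WT aorta, 20 of the 44 collagen genes changed, 14 lower and 6 higher. That is 45.5% of the family, against 12.0% of the 14374 genes tested. The 14 lower genes are 31.8% of the family, against 6.76% of tested genes called lower, and the 6 higher genes are 13.6%, against 5.26%. How many of the 44 entered the authors' test is not given, so these shares are descriptions. Called collagens were also abundant, and small changes are easier to call at high counts. Their median mean normalized count was 18885, against 1186 for all called genes. The 20 had a median log2 fold change of −0.35 in the authors' deposited table, where all 1728 called genes had −0.21. Among called genes such a median follows the majority direction. The median size without sign was 0.525, against 0.405 for all called genes.

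In aged KO aorta, 9 collagen genes changed, 8 lower and 1 higher. They are 20.5% of the family, against 14.4% of 14477 tested genes, so the share called lies nearer the background than in WT ageing. The lower genes are 18.2% of the family against 6.68% of tested genes, and the higher gene, Col11a2, is 2.27% against 7.71%. The median log2 fold change of the 9 in the authors' deposited table was −0.23, where all 2083 called genes had 0.18. Without sign the median size was 0.31, against 0.33 for all called genes. At an adjusted DESeq2 p under 0.001, 1 of the 9 remained, Col11a2.

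KO young aorta differed from WT aged aorta in 11 collagen genes, 8 higher and 3 lower. The background was 7.78% of 14661 tested genes. Genes higher in KO young are 18.2% of the family against 4.08% of tested genes, and lower genes are 6.82% against 3.70%. The median log2 fold change of the 11 was 0.23 in the authors' deposited table, and that of all 1141 called genes was 0.20. Without sign the median size was 0.36, against 0.40 for all called genes. The lean to higher genes did not hold at stricter thresholds, with 3 higher and 3 lower at an adjusted DESeq2 p under 0.01 and 1 higher and 2 lower at 0.001 or at a log2 fold change of 0.5 or more in size. This comparison shares WT aged with WT ageing and KO young with KO ageing, so opposite signs between them are in part built in.

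**Figure D1:**
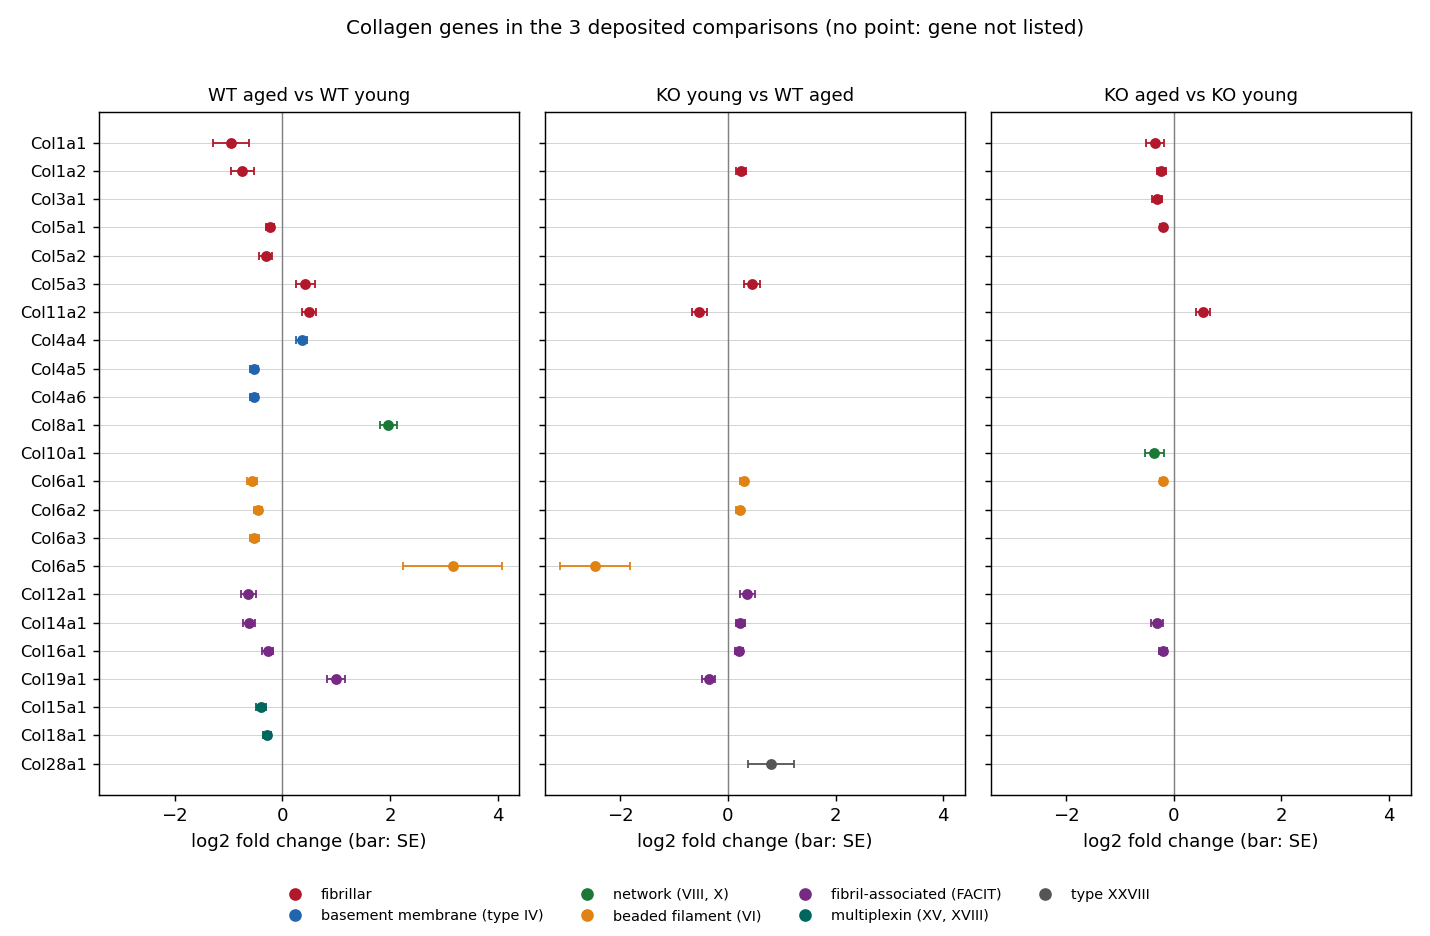
Log2 fold change (x axis, bar: SE) of the 23 listed collagen genes (y axis, grouped by type) in the authors' deposited tables; a gene without a point was not listed there. In WT ageing most points lie left of 0, while Col6a5 at 3.17 and Col8a1 at 1.97 lie far to the right.

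Among the 11 fibrillar genes, 6 changed in WT ageing, 4 lower and 2 higher, where 12.0% of all tested genes were called. Col1a1 and Col1a2, which encode the chains of type I collagen, the main stiff fibril of the adventitia, carried the largest decreases of the class. Col1a1 had a log2 fold change of −0.95 (SE 0.34, adjusted p = 0.00223) in the authors' deposited table, from an implied 137526 normalized counts in WT young to 71188 in WT aged. Col1a2 stood at −0.74 (SE 0.21, adjusted p = 0.000408) in the authors' deposited table, from an implied 161879 in WT young to 96923 in WT aged. By these implied levels Col1a1 fell by 48.2% and Col1a2 fell by 40.1%, the steepest among the 14 lower collagens. Their SEs were wide for such abundant genes, since the listed genes nearest in mean normalized count had a median SE of 0.08 in the authors' deposited table. Sparc, which encodes a collagen-binding matrix protein, was at −0.89 (SE 0.23) in the authors' deposited table. Whether 1 library made these SEs wide was not tested.

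KO ageing listed 5 of the 11 fibrillar genes, beside 14.4% of all tested genes, and KO young against WT aged listed 3, beside 7.78%. Type I collagen fell in KO ageing too. Col1a1 was at −0.35 (SE 0.16, adjusted p = 0.0251) in the authors' deposited table, from an implied 81516 in KO young to 63956 in KO aged. For Col1a2 the authors' deposited table gave −0.23 (SE 0.08, adjusted p = 0.00758), from an implied 110095 to 93871. KO young aorta had more Col1a2 RNA than WT aged aorta, at 0.24 (SE 0.09, adjusted p = 0.0181) in the authors' deposited table, and Col1a1 was not listed for that comparison. Col3a1, the partner of type I in distensible fibrils of the vessel wall, was listed only in KO ageing, at −0.31 (SE 0.10, adjusted p = 0.00398) in the authors' deposited table, from an implied 92480 to 74598.

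Type V collagen starts and limits the width of type I fibrils, and its genes did not move together. Col5a1 fell in both genotypes, with −0.23 (SE 0.07, adjusted p = 0.00793) in WT ageing and −0.20 (SE 0.06, adjusted p = 0.00323) in KO ageing in the authors' deposited tables. In WT ageing the implied Col5a1 level went from 40071 in WT young to 34166 in WT aged. In KO ageing it went from 38941 in KO young to 33901 in KO aged, from the authors' deposited tables. These pairs were normalized separately and are not compared with each other. Col5a2, a neighbour of Col3a1 in the genome, fell in WT ageing at −0.31 (SE 0.12, adjusted p = 0.00989) in the authors' deposited table. Col5a3, the minor chain of the type, rose instead, at 0.43 (SE 0.18, adjusted p = 0.0204) in the authors' deposited table, from an implied 807 to 1088. It was also higher in KO young than in WT aged, at 0.45 (SE 0.15, adjusted p = 0.00534) in the authors' deposited table, with an implied 1540 against 1128. Its level thus stood lower in WT young in the WT ageing table and higher in KO young in the other table.

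Col11a2, which encodes a chain of the type XI fibrils best known from cartilage, rose with age in both genotypes. The authors' deposited table gave 0.50 (SE 0.13, adjusted p = 0.000216) in WT ageing, from an implied 328 in WT young to 463 in WT aged. KO ageing gave 0.54 (SE 0.13, adjusted p = 4.65e-05) in the authors' deposited table, from an implied 331 to 481. KO young stood below WT aged at −0.53 (SE 0.14, adjusted p = 0.000433) in the authors' deposited table. By the implied levels the rise was 41.4% in WT and 45.4% in KO. Markers of cartilage cells moved in both directions beside it. All tested genes were called at 12.0% in WT ageing, 14.4% in KO ageing and 7.78% in KO young against WT aged. Of 10, WT ageing listed Hapln1 at 0.89 (SE 0.16), Cytl1 at 0.53 (SE 0.14) and Sox9 at −0.91 (SE 0.23) in the authors' deposited table. KO ageing listed 3, all lower, Comp at −0.80 (SE 0.11), Sox9 at −0.53 (SE 0.22) and Acan at −0.32 (SE 0.13) in the authors' deposited table. KO young against WT aged listed 1 higher and 3 lower, led by Cytl1 at −1.12 (SE 0.12), Acan at −0.58 (SE 0.12) and Hapln1 at −0.58 (SE 0.18) in the authors' deposited table. Their part in the Col11a2 result was not tested. The fibrillar genes Col2a1, Col11a1, Col24a1 and Col27a1 were listed for no comparison.

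The 250 bases before the Col11a2 start (RefSeq, GRCm38.p6, chr17:34038888-34039137, plus strand) are shown because it is the collagen that rose in both genotypes. Capitals here and in the sequences that follow mark matches, on either strand, to the GC box GGGCGG, the CCAAT box CCAAT, the TATA box TATAAA and the AP-1 element TGANTCA. The Col11a2 window holds 2 GC boxes and 1 TATA box.
Col11a2: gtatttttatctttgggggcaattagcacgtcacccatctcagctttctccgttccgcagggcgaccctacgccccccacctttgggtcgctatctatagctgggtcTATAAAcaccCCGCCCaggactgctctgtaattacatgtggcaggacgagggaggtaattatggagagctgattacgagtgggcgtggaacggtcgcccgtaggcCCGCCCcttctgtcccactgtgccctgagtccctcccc
Of 32851 windows of this length over all genes, 32.7% hold the GC box, 33.8% the CCAAT box, 12.4% the TATA box and 6.75% the AP-1 element. RefSeq windows were matched for 35 of the 44 collagen genes, in 38 windows, of which 22 hold the GC box, 13 the CCAAT box, 5 the TATA box and 1 the AP-1 element. A match describes letters and is not a binding site.

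Basement membrane collagen changed in WT ageing in 3 of its 6 genes, beside 12.0% of all tested genes, and was listed in no other comparison. Col4a5 and Col4a6, whose products assemble together in the basement membrane around smooth muscle, fell by the same amount. The authors' deposited table gave −0.53 (SE 0.08, adjusted p = 1.52e-10) for Col4a5, from an implied 25714 in WT young to 17808 in WT aged. Col4a6 was at −0.53 (SE 0.08, adjusted p = 5.82e-11) in the authors' deposited table, from an implied 22565 to 15627. By the implied levels each fell by 30.7%. Col4a4, a chain of another type IV trimer best known from kidney and inner ear, rose at 0.36 (SE 0.10, adjusted p = 0.00139) in the authors' deposited table, from an implied 3805 to 4884. Its partner and neighbour Col4a3 was not listed. Neither were Col4a1 and Col4a2, which make the most widespread type IV trimer, so the tables show no call for it in either genotype.

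Col4a5 and Col4a6 are neighbours on the X chromosome and are read away from each other, and their start regions are shown because both genes fell by the same amount. The windows (RefSeq, GRCm38.p6) are chrX:141475169-141475418, plus strand, and chrX:141474077-141474326, minus strand. The Col4a5 window holds 1 GC box and 1 CCAAT box, and the Col4a6 window holds 1 GC box.
Col4a5: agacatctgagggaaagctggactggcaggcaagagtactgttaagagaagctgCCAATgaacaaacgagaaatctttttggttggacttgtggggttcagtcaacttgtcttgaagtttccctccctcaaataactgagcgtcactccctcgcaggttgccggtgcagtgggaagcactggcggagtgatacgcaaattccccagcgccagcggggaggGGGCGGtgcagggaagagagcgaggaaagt
Col4a6: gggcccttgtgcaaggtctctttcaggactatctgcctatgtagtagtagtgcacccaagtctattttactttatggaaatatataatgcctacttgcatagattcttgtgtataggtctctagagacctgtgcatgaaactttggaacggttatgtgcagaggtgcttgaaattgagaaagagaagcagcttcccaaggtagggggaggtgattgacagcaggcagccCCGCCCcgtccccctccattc
Their GC content is 54% and 47.6%.

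Other basement membrane genes fell with them in WT ageing. Of 17 partner genes, 9 were called and all 9 were lower, where 6.76% of all tested genes were called lower. They were led by Nid2, which links laminin to type IV collagen, at −0.88 (SE 0.13) and Agrn at −0.44 (SE 0.07) in the authors' deposited table. The perlecan gene Hspg2 was at −0.29 (SE 0.06) and Pxdn, the peroxidase that crosslinks type IV collagen, at −0.43 (SE 0.09) in the authors' deposited table. KO ageing called 1 of the 17, where 14.4% of all tested genes were called, namely Pxdn at −0.23 (SE 0.07) in the authors' deposited table. KO young against WT aged called 4 of the 17, beside 7.78% of tested genes, with Lama2 higher at 0.42 (SE 0.08), Pxdn at 0.31 (SE 0.08) and Nid2 at 0.34 (SE 0.17), and Lamc1 lower at −0.21 (SE 0.07), in the authors' deposited table. The multiplexins, which sit at the outer face of basement membranes, both fell in WT ageing and were listed nowhere else. Col15a1 was at −0.39 (SE 0.10, adjusted p = 0.000183) in the authors' deposited table. Col18a1, whose product releases the angiogenesis inhibitor endostatin, was at −0.28 (SE 0.08, adjusted p = 0.00147) in the authors' deposited table, from an implied 75409 to 62106.

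Among the 3 network collagens, Col8a1 carried the strongest call of the family. It encodes a short-chain collagen made by smooth muscle and endothelial cells of vessel walls. The authors' deposited table gave 1.97 (SE 0.16, adjusted p = 1.21e-35) in WT ageing, the fourth smallest p of 1728 called genes. Its implied level rose 3.92-fold, from 451 in WT young to 1766 in WT aged. The gene was listed neither in KO ageing nor for KO young against WT aged, and its KO levels were not analysed here. Col8a2, which encodes its partner chain, was listed in no table. Col10a1, a network collagen of cartilage growth zones, was listed only in KO ageing, at −0.36 (SE 0.17, adjusted p = 0.0271) in the authors' deposited table, from an implied 325 to 253. The Col8a1 start window (RefSeq, GRCm38.p6, chr16:57754738-57754987, minus strand), shown for the strongest call, holds 4 GC boxes.
Col8a1: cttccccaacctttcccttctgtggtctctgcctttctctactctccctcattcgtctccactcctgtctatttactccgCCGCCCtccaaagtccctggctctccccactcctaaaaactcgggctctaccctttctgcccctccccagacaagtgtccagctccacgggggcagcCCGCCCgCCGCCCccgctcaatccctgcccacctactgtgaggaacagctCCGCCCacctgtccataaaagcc

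Beaded-filament collagen split by chain in WT ageing, where 4 of its 6 genes were called, beside 12.0% of all tested genes. Col6a1, Col6a2 and Col6a3, whose products form the common type VI trimer, fell by like amounts. The authors' deposited table gave −0.56 (SE 0.09, adjusted p = 1.19e-09) for Col6a1, from an implied 25085 in WT young to 17015 in WT aged. Col6a2, its neighbour in the genome, was at −0.45 (SE 0.07, adjusted p = 1.67e-08) in the authors' deposited table. For Col6a3, on another chromosome, the authors' deposited table gave −0.52 (SE 0.08, adjusted p = 2.32e-09). By the implied levels Col6a1 fell by 32.2%, Col6a2 fell by 26.8% and Col6a3 fell by 30.3%, and all 3 were abundant.

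Col6a5, which encodes an alternative long chain of type VI, rose in the same aortas. The authors' deposited table put it at 3.17 (SE 0.92, adjusted p = 9.46e-06). The implied level went from 52.5 in WT young to 472 in WT aged, a 9.00-fold rise at low counts. KO young stood below WT aged at −2.47 (SE 0.65, adjusted p = 0.000367) in the authors' deposited table, with an implied 86.1 against 477. Col6a5 was not listed in KO ageing. The SE of 0.92 compares with a median of 0.19 for the listed genes nearest in mean normalized count, so the size of this rise is imprecise. Its relatives Col6a4 and Col6a6, which flank it in the genome, were listed nowhere.

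KO ageing listed 1 of the 6 type VI genes, beside 14.4% of all tested genes, and KO young against WT aged listed 3, beside 7.78%. In KO ageing the type VI genes were represented by Col6a1 alone, at −0.20 (SE 0.06, adjusted p = 0.00353) in the authors' deposited table, from an implied 21638 to 18837. KO young exceeded WT aged in Col6a1, at 0.29 (SE 0.06, adjusted p = 2.35e-05), and in Col6a2, at 0.22 (SE 0.06, adjusted p = 0.00214), in the authors' deposited table. The start windows of Col6a1 (RefSeq, GRCm38.p6, chr10:76726045-76726294, minus strand) and Col6a5 (chr9:105960644-105960893, minus strand) are shown as type VI genes that moved in opposite directions. The Col6a1 window holds the AP-1 element and no GC box, and the Col6a5 window holds 1 GC box.
Col6a1: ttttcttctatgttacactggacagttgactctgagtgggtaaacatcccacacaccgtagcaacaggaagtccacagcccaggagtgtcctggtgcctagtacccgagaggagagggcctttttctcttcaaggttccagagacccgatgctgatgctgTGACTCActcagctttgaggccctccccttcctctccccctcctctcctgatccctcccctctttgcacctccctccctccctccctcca
Col6a5: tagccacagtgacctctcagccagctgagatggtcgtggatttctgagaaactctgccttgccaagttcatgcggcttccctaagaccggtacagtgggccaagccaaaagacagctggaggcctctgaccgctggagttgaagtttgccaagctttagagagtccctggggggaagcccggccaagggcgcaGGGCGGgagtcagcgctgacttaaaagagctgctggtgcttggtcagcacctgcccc

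Fibril-associated collagens also split. Of 9 genes, 3 fell and 1 rose in WT ageing, where 12.0% of all tested genes were called. Col14a1, whose product binds fibril surfaces through decorin, was at −0.62 (SE 0.12, adjusted p = 3.91e-07) in the authors' deposited table, from an implied 22626 to 14722. Col12a1, a close relative on fibrils under tension, was at −0.63 (SE 0.14, adjusted p = 7.49e-06) in the authors' deposited table, from an implied 2637 to 1704. Col16a1 fell less, at −0.27 (SE 0.10, adjusted p = 0.0146) in the authors' deposited table. Col19a1, a minor collagen of basement membrane zones, rose at 1.00 (SE 0.17, adjusted p = 8.8e-09) in the authors' deposited table, from an implied 990 to 1980.

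These genes were listed for KO young against WT aged as well, 4 of the 9, beside 7.78% of all tested genes. KO ageing listed 2 of the 9, beside 14.4%. Higher in KO young were Col12a1 at 0.36 (SE 0.15, adjusted p = 0.0188), Col14a1 at 0.23 (SE 0.09, adjusted p = 0.025) and Col16a1 at 0.20 (SE 0.08, adjusted p = 0.0265) in the authors' deposited table. Col19a1 was lower there, at −0.36 (SE 0.13, adjusted p = 0.00886) in the authors' deposited table. KO ageing listed Col14a1 at −0.31 (SE 0.11, adjusted p = 0.00563) and Col16a1 at −0.20 (SE 0.07, adjusted p = 0.0162) in the authors' deposited table. Col28a1, a von Willebrand domain collagen known in mouse from peripheral nerve, was listed only as higher in KO young than in WT aged, at 0.80 (SE 0.43, adjusted p = 0.0287) in the authors' deposited table. Its implied level was 72.4 in KO young and 41.6 in WT aged, the lowest mean of any listed collagen, and no Schwann cell marker of 10 was listed beside it. The 4 transmembrane collagens Col13a1, Col17a1, Col23a1 and Col25a1 were listed nowhere.

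Abundance and direction went together in WT ageing. All 12 listed collagens with a mean over 10000 normalized counts were lower in aged aorta, while the 8 below that mean split into 6 higher and 2 lower. The same lean was present among all called genes over 10000, of which 119 were lower and 21 higher. In KO ageing the 6 collagens over 10000 were lower, where all called genes over 10000 gave 81 lower and 59 higher. Per kilobase of the GENCODE transcript with the longest coding sequence, the mean normalized count among the 20 collagens listed in WT ageing was highest for Col1a2 at 24196, Col1a1 at 17598 and Col18a1 at 12289. Col6a2 and Col6a1 followed at 6038 and 5134 per kilobase, and Col6a5 was lowest at 28.3, from means in the authors' deposited table. Collagens not listed there, such as Col3a1, Col4a1 and Col4a2, have no place in this order.

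**Figure D2:**
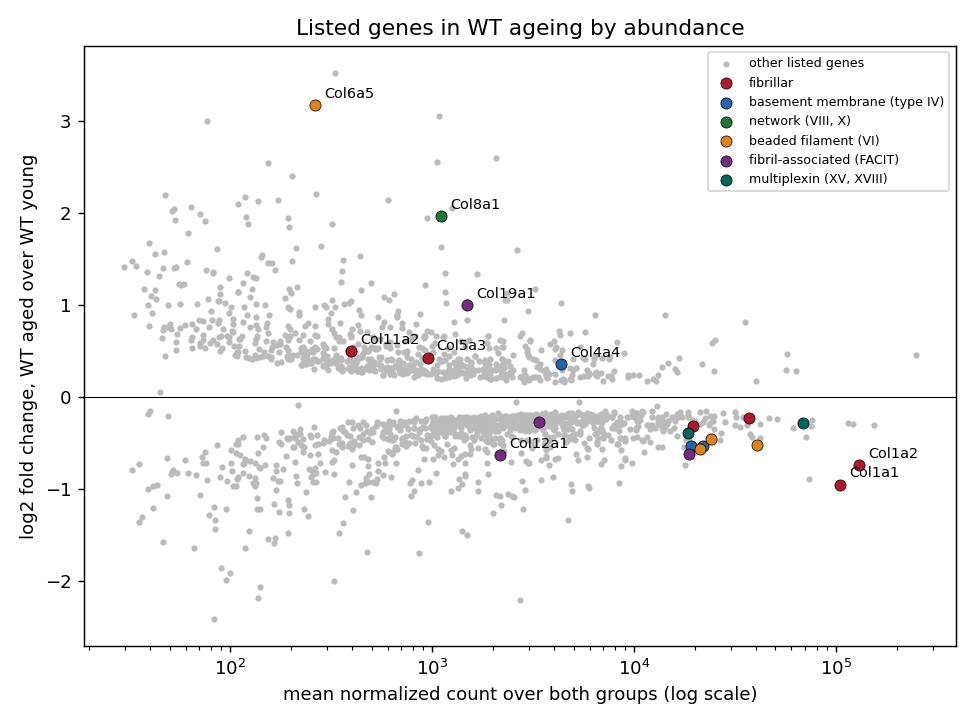
Mean normalized count over both groups (x axis, log scale) against the log2 fold change of WT aged over WT young (y axis) for the 1728 listed genes, with the 20 collagens coloured by type. Collagens over 10000 lie below 0, and the 6 risers, labelled, lie under 10000.

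The ageing tables of WT and KO share no library, so their changes could be compared. Both listed 7 collagens, 35.0% of the 20 in WT ageing and 77.8% of the 9 in KO ageing, and all 7 had the same direction in both. Over all genes, 438 were listed in both, out of 1728 called in WT ageing and 2083 called in KO ageing. Of these 438, 361 had the same direction. Of the 7, 6 had the larger size of change in WT, as did 283 (64.6%) of the 438. The median SE of called genes was 0.121 in WT ageing and 0.098 in KO ageing. A call thus tended to need a larger change in WT, so this lean is in part built in. The difference of both log2 fold changes was tested against the root of the summed squared SEs, with Benjamini-Hochberg adjustment over the 438 genes, of which 131 (29.9%) passed 0.05. The 438 include genes called in opposite directions, whose difference is large by selection, while all 7 collagens had the same direction. The 29.9% is therefore not a like background for the 7. The same genes also enter the adjustment and can lower the adjusted p of the others. An adjustment over genes of the same direction alone was not run.

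Col6a1 alone of the 7 passed. The share passing among genes of the same direction was not worked out here, so 1 of 7 is not read as a trait of the family. Col6a1 fell by more in WT, with a WT minus KO difference of −0.36 (95% interval −0.57 to −0.15, adjusted p = 0.00329, z test on the DESeq2 values), and it did not pass with Bonferroni adjustment (adjusted p = 0.286). Type I collagen differed by more in size but with wider error. Col1a2 had a difference of −0.51 (95% interval −0.96 to −0.06, adjusted p = 0.0807), and passed in either of the alternative forms of the test, at adjusted p = 0.0189 with SEs implied by the p-values and 0.0173 with fold changes implied by them. Col1a1 had −0.60 (95% interval −1.33 to 0.13, adjusted p = 0.269), and Col14a1 had −0.31 (95% interval −0.62 to −0.0013, adjusted p = 0.143). Col16a1 had −0.07 (95% interval −0.31 to 0.17), Col5a1 −0.03 (−0.21 to 0.15) and Col11a2 −0.04 (−0.39 to 0.31), so the intervals still hold differences of some size. For the 13 collagens listed in WT ageing only and the 2 in KO ageing only, the difference was not tested.

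**Figure D3:**
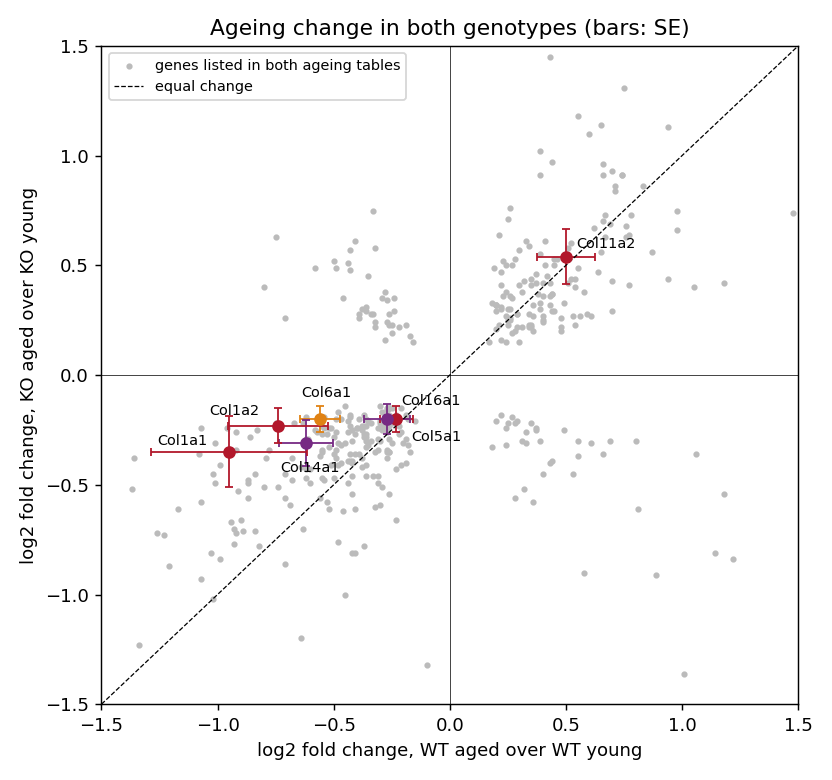
Log2 fold change with age in WT (x axis) and KO (y axis) for genes listed in both ageing tables (grey; 15 of 438 lie outside the axes) and the 7 collagens (bars: SE, colours by type: red fibrillar, orange beaded filament, purple fibril-associated). Col1a1, Col1a2, Col6a1 and Col14a1 lie above the line of equal change, and Col11a2 lies near it.

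**Figure D4:**
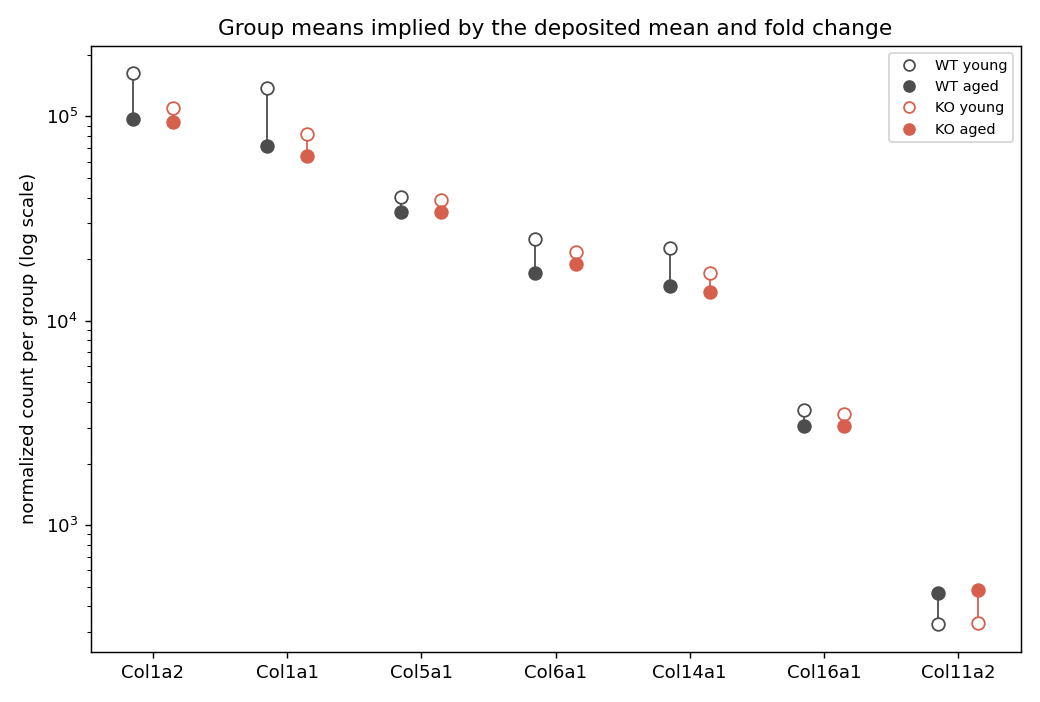
Normalized count per group (y axis, log scale) implied by the deposited mean and fold change, for the 7 collagens listed in both ageing tables; open circles are young, filled circles aged, grey WT and red KO, and each line joins the groups of 1 table. WT and KO points come from separately normalized tables; the lines for Col1a1 and Col1a2 are longer in WT, from 137526 to 71188 and from 161879 to 96923.

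Genes that make and handle collagen were read beside the family, against the 12.0% of all tested genes called in WT ageing, 14.4% in KO ageing and 7.78% in KO young against WT aged. Of 19 folding and hydroxylation genes, 5 fell and 1 rose in WT ageing. Creb3l1, a transcription factor of collagen secretion, was at −0.63 (SE 0.10), the chaperone gene Fkbp10 at −0.46 (SE 0.10), and the lysyl hydroxylase gene Plod2 at −0.30 (SE 0.09), while the prolyl 3-hydroxylase gene P3h2 rose at 0.42 (SE 0.10) in the authors' deposited table. In KO ageing 3 rose and 1 fell, a count of 4 in 19 that lies near the 14.4% of all tested genes. The prolyl 4-hydroxylase genes P4ha2 and P4ha1 rose at 0.45 (SE 0.09) and 0.52 (SE 0.10), Plod1 rose at 0.25 (SE 0.08) and Creb3l1 fell at −0.22 (SE 0.10) in the authors' deposited table. KO young against WT aged gave 2 higher, Creb3l1 at 0.36 (SE 0.11) and Plod2 at 0.34 (SE 0.11), and 2 lower, P4ha1 at −0.31 (SE 0.09) and Plod1 at −0.22 (SE 0.08), in the authors' deposited table.

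Of 13 propeptide-cleaving and crosslinking genes, 3 were called in WT ageing and all 3 were lower. They were Pcolce2, an enhancer of procollagen C-proteinase, at −1.01 (SE 0.09), the N-proteinase gene Adamts2 at −0.44 (SE 0.11) and the crosslinking oxidase gene Loxl1 at −0.19 (SE 0.08) in the authors' deposited table. KO ageing called 1, Pcolce2 at −0.31 (SE 0.12) in the authors' deposited table. KO young exceeded WT aged in 3, Lox at 0.42 (SE 0.09), Pcolce2 at 0.39 (SE 0.10) and Adamts2 at 0.28 (SE 0.08), in the authors' deposited table. Of 10 collagen receptors, 2, 1 and 1 were called in WT ageing, KO ageing and KO young against WT aged, near the shares of all tested genes given above. WT ageing listed the kinase gene Ddr1 as lower at −0.47 (SE 0.09) and the integrin gene Itga11 as higher at 0.33 (SE 0.16) in the authors' deposited table. KO ageing listed Ddr2 at −0.21 (SE 0.06), and KO young against WT aged listed Itga10 at 0.30 (SE 0.10), in the authors' deposited tables. Of 10 collagenases and inhibitors, 2, 2 and 1 were called in the same order, also near those shares. The inhibitor genes Timp2 and Timp3 fell in WT ageing, at −0.30 (SE 0.07) and −0.27 (SE 0.09) in the authors' deposited table. In KO ageing the gelatinase gene Mmp2 fell at −0.31 (SE 0.10) and Timp3 at −0.20 (SE 0.08), and Mmp2 was higher in KO young than in WT aged at 0.28 (SE 0.09), in the authors' deposited tables.

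Markers of cells that make collagen were read in the same way. Of 12 fibroblast and adventitial markers, 5 fell and 1 rose in WT ageing, where 6.76% of all tested genes were called lower and 5.26% higher. Sfrp2 was at −0.62 (SE 0.08), Fap at −0.60 (SE 0.13) and Postn at −0.33 (SE 0.10), and the riser was Thy1 at 0.31 (SE 0.15), in the authors' deposited table. KO ageing listed 2 of the 12, near its 14.4% of all tested genes, with Fap at −0.49 (SE 0.15) and Sfrp2 at −0.29 (SE 0.11), and KO young exceeded WT aged in Fap at 0.46 (SE 0.14) and Dpt at 0.20 (SE 0.08), in the authors' deposited tables. In aorta taken whole, fewer cells of a type and less RNA per cell cannot be told apart.

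Markers of other cell types moved less evenly. Their counts stand beside 12.0% of all tested genes called in WT ageing, 14.4% in KO ageing and 7.78% in KO young against WT aged. Among smooth muscle markers, Des rose in WT ageing at 0.39 (SE 0.12), and in KO ageing Myocd rose at 0.58 (SE 0.09) while Lmod1 fell at −0.32 (SE 0.09) and Synpo2 at −0.21 (SE 0.06), in the authors' deposited tables. KO young against WT aged gave Synpo2 at 0.27 (SE 0.07), Mylk at −0.20 (SE 0.07) and Smtn at −0.20 (SE 0.07) in the authors' deposited table. Of 10 brown fat markers, 6 rose and 1 fell in KO ageing, with Ppargc1a at 0.89 (SE 0.14), Kcnk3 at 0.87 (SE 0.16) and Prdm16 at −0.33 (SE 0.08) in the authors' deposited table. Ucp1 at 1.62 (SE 0.45), Cox8b at 1.39 (SE 0.53), Cox7a1 at 1.18 (SE 0.47) and Otop1 at 1.05 (SE 0.60) rose by more there, with wider SEs. WT ageing listed 1 of the 10 markers as higher, Prdm16 at 0.18 (SE 0.07), and KO young against WT aged listed Otop1 at −1.13 (SE 0.21), Dio2 at 0.57 (SE 0.13) and Prdm16 at 0.19 (SE 0.08), in the authors' deposited tables. Called brown fat markers were thus most numerous in KO ageing.

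Of 10 adipocyte markers, WT ageing listed Cidec at 0.45 (SE 0.17) and Cfd at 0.89 (SE 0.35), KO young against WT aged listed Cidec at −0.56 (SE 0.16) and Plin4 at −0.17 (SE 0.07), and KO ageing listed Plin4 at 0.20 (SE 0.07), in the authors' deposited tables. Of 10 endothelial markers, none was called in WT ageing at an adjusted DESeq2 p under 0.05, and unadjusted p-values of uncalled genes were not analysed here. KO young against WT aged called 5, 2 higher and 3 lower, beside 7.78% of all tested genes. Nos3 was at −0.71 (SE 0.15), Egfl7 at 0.48 (SE 0.13) and Kdr at 0.36 (SE 0.15) in the authors' deposited table. KO ageing called 3, Egfl7 at −0.60 (SE 0.11), Nos3 at 0.50 (SE 0.13) and Cldn5 at −0.67 (SE 0.23) in the authors' deposited table. The only Schwann cell marker called of 10 was S100b in KO ageing, at 0.36 (SE 0.21) in the authors' deposited table. In KO ageing 14.4% of all tested genes were called. The part of any of these markers in the collagen results was not tested.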

How the data were processed

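RNA of 20 libraries of mouse aorta was sequenced from a stranded low-input kit, per the labels' protocols. Per the submitters' processing notes, the build was GRCm39 and the tools included DESeq2 1.42.1, STAR 2.7.11b, MultiQC 1.25.1 and, from Subread 2.0.8, featureCounts; their settings, the strand used in counting and the annotation were named in none of the sources used. Per the file headers, the authors deposited for each called gene a p-value and adjusted p-value, a log2 fold change rounded to 2 decimals, its standard error (kept here as a score) and a mean normalized count, a signal pooled over the libraries compared. The raw counts per library that the labels name were not analysed here, so depth is unknown and no model was refitted.

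The number of tested genes (14374, 14661 and 14477) follows from how far Benjamini-Hochberg adjustment moved the largest listed p-value. The direction of each table was taken from the group a pair of tables shares: with the reading used, WT aged means differed by a median absolute deviation of 0.0286 (log2) against at least 0.185 for other readings, and KO young means by 0.0353 against at least 0.115. Signs in the table of KO young and WT aged were turned accordingly. Shrinkage shows as a median ratio of 0.858, 0.841 and 0.865 between fold change over SE and the z implied by p.

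Members, lists and tests were chosen with earlier results of these data known. Every listed collagen is named, with up to 4 genes per pathway list and 3 per marker list in each comparison by adjusted p. Thy1 and Sparc, and in KO ageing Ucp1, Cox8b, Cox7a1 and Otop1, lie outside this rule and were named after their values were seen. GENCODE vM21 (GRCm38) gave transcript lengths and RefSeq GRCm38.p6 the start windows; gene neighbours are from the same RefSeq assembly. In GENCODE, antisense exons overlap Col10a1, Col15a1 and Col5a1 by at most 212 bases, and Gm47302 overlaps Col3a1 on its own strand by 141, so their counts could include other reads. The difference test was tried on simulated effects that were either equal or opposite between groups. Those effects were not shrunken and were larger than the median size among called genes, 0.405 in WT ageing and 0.33 in KO ageing. The behaviour of the test on small or shrunken effects was not tested. Nor was it tested on unequal effects of the same direction, as in the collagens listed in both ageing tables. Computations used pandas 2.3.3, SciPy 1.17.1 and NumPy 2.4.6 under Python 3.11.15, and plots matplotlib 3.10.9. A median SE of neighbours is over the 101 listed genes nearest in mean normalized count. Alternatives were stricter thresholds, Bonferroni adjustment, a minimum mean or fold change, and other forms of SE or fold change in the difference test.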

Additional observations from a re-analysis of the deposited data

Results flagged for a closer look

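The change of Col6a1 with age differed between genotypes by the test of the difference itself. Its log2 fold change was −0.56 in WT and −0.20 in KO in the authors' deposited tables, a WT minus KO difference of −0.36 (adjusted p = 0.00329 over 438 genes, z test on DESeq2 values). The 438 include genes called in opposite directions, which can lower this adjusted p, and an adjustment without them was not run. Col6a1 was 1 of 7 collagens tested, without a like background share. With Bonferroni adjustment of the same z test on DESeq2 values it did not pass (adjusted p = 0.286). Col6a2 and Col6a3, which encode the other chains of the same trimer, were not listed in KO ageing, and their difference was not tested. Single libraries were not analysed here, so none was checked for standing apart.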

How the results depend on the processing

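No paired analysis was possible because the 3 tables analysed hold no value per library, and leaving out a replicate was not run for the same reason; the table of counts per library that the labels name was not analysed here. Of 20 collagens called in WT ageing, 18 remained at an adjusted p under 0.01, 13 under 0.001, 10 under Bonferroni and 12 with a fold change of 0.5 or more in size (log2); in each the lower genes stayed the majority (13, 9, 7 and 8). For KO young against WT aged the 11 became 6, 3, 1 and 3 under the same settings. The 8 to 3 lean was not kept: the split was 3 higher and 3 lower at 0.01, 1 higher and 2 lower at 0.001, 1 higher under Bonferroni, and 1 higher and 2 lower at the larger fold change. For KO ageing the 9 became 6, 1, 1 and 1, the last being Col11a2, which is higher, so the lower direction in KO ageing rests on small changes with adjusted p over 0.001. A minimum mean of 50 left these counts as they were. Of 7 collagens tested for a difference between genotypes, 1 passed; with SEs or fold changes implied by the p-values 2 passed, adding Col1a2, and with Bonferroni adjustment 0 passed (Col6a1 adjusted p = 0.286; 3 of 7 had an unadjusted p under 0.05). The stricter settings reuse the deposited fold changes and could not turn a sign. In the difference test only fold changes implied by the p-values could, and none of the 7 differences turned. Uncalled genes and depth per library limit every count here.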
